A study of Danio rerio with 12 samples.

Results

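Ventricles of adult zebrafish were compared at 3 days post-amputation (dpa) between experiment 4 and experiments 2 and 3, the numbers that the sample labels give to repeats of the foxm1 experiment. The comparison took every library of that experiment: 2 libraries of experiment 4 (1 WT and 1 foxm1 mutant) against 4 libraries of experiments 2 and 3 (2 WT and 2 foxm1 mutant), so 6 of the 12 samples of the series. WT fish were AB*. The mutants were labelled sa10708/sa10708 in experiment 2, sa10708/sa10709 in experiment 3 and sa10708/sa10710 in experiment 4, whereas the study's methods name sa10708 alone, so the allele label of the mutants changes with the experiment. All 6 groups of fish had resection of the ventricle, and their age is given in the labels only as 6-1year. Each library is RNA from a pool of ventricles, and the sources used here do not say what an experiment number stands for (a day, a clutch or a sequencing run) or at which hour hearts were collected.

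The question was which states of the tissue differed between pools of hearts that had received the same injury. Such a state is the circadian clock, which runs in most zebrafish tissues. In it, the activators Clock and Bmal (Arntl) switch on the genes for Per and Cry repressors, which then shut the activators down. A further loop of nuclear receptors (Nr1d repressors and Ror activators) sets the level of arntl transcripts, and the PAR bZIP factors Dbp, Tef and Hlf, opposed by Nfil3, pass the rhythm on to target genes. A second kind of state is acute stress, in which cortisol acts through the glucocorticoid receptor to induce fkbp5 and klf9, and in which immediate early genes such as fos, jun and nr4a family members are switched on within minutes of a stimulus.

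The 6 libraries held between 17654534 and 21245883 reads in genes, mitochondrial transcripts took from 8.19% to 11.4% of them and introns from 6.12% to 6.93%. Values are given as CPM (counts scaled to library size, with TMM factors), and 17618 of 25281 genes passed the filter on low counts. Levels of foxm1 were 10.4, 10.3 and 12.2 CPM in the WT libraries of experiments 2, 3 and 4 and 12.7, 14.6 and 12.5 CPM in the mutant libraries, with a log2 fold change of 0.06 for experiment 4 (adjusted p = 0.895). A gene was called at an adjusted p of at most 0.05 (Benjamini-Hochberg, edgeR's quasi-likelihood test with genotype as a block) and with a log2 fold change whose size reached 0.59. Under this test 1 gene was called higher in experiment 4 and 1 lower, each 0.00568% of those tested. An unadjusted p under 0.05 was reached by 1037 genes in the higher direction and 1187 in the lower. DESeq2 on the same design called 52 of 14202 genes higher (0.366%) and 164 lower (1.15%), and edgeR's likelihood ratio test called 104 and 191.

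The gene called lower was dbpa, which encodes a PAR bZIP factor of the clock output (ENSDARG00000063014, GRCz11 chromosome 19, 10177115 to 10196370). It was at 40.3, 38.6 and 9.02 CPM in the WT libraries of experiments 2, 3 and 4 and at 30.2, 37.7 and 8.13 CPM in the mutant libraries. Both libraries of experiment 4 thus lay far below each of the other 4, at 8.58 ± 0.629 CPM (SD, n = 2) against 36.7 ± 4.49 (SD, n = 4). The gene fell by 2.09 on the log2 scale (with a standard error of 0.147 and an adjusted p of 0.0148), and its log2 fold change was -2.13 within WT and -2.06 within the mutants. Without the WT library of experiment 2 the adjusted p of dbpa was 0.0648, and without the WT library of experiment 4 it was 0.0560, with log2 fold changes of -2.07 and -2.05.

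The gene called higher, crygn1 (ENSDARG00000102129, chromosome 2, 51783120 to 51815413), carries the name of a crystallin, a family of eye lens proteins. It had 3, 1 and 96 reads in the WT libraries of experiments 2, 3 and 4 and 11, 6 and 279 reads in the mutant libraries. The fitted log2 fold change was 4.98 (with a standard error of 0.327 and an adjusted p of 0.0148). Of its 396 reads in the 6 libraries, 395 lay in introns and 1 in an exon. The call therefore describes reads inside the introns of crygn1, and whether they come from its own transcript was not tested. On exon reads the gene did not pass the filter on low counts.

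The next gene by p-value was kalrna, a kalirin gene, at 13.4, 12.6 and 32.5 CPM in the WT libraries of experiments 2, 3 and 4 and at 12.5, 12.1 and 27.9 CPM in the mutants. Its log2 fold change of 1.25 had an adjusted p of 0.0512 and did not pass. The clock lists described below held 37 of the 17618 genes tested. At an adjusted p of at most 0.1 there were 2 genes higher and 9 lower. Of these 11, 5 were clock genes, dbpa with cry2, per3, tefa and ciartb. Another was mat2ab, which encodes a subunit of methionine adenosyltransferase, at 23.3, 20.2 and 5.49 CPM in WT and at 15.6, 17.5 and 5.90 CPM in the mutants. The genes kalrna, mat2ab and rrad were named after their values were seen. Levels of rrad, which encodes a small GTPase that restrains calcium channels, were 42.1, 37.3 and 216 CPM in WT and 119, 128 and 279.5 CPM in the mutants (log2 fold change 1.85, adjusted p = 0.135).

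Over both genotypes together, clock repressors had the median furthest from zero of the lists examined. This list holds the per and cry genes with ciart and bhlhe genes, and whether each member acts as a repressor was not tested. All 14 of its genes found in the files passed the filter. Of these, 10 had a negative log2 fold change, and the median was -1.34, against -0.00133 over all genes tested. In 9 of the 14 the experiment 4 library lay below both other libraries in each genotype, which held for 16.2% of all genes tested. In 3 of the 14 it lay above both in each genotype, against 16.6% of all genes. No gene of the list was called by the quasi-likelihood test. DESeq2 called 8 of the 14 lower (1.15% of all genes it tested) and none higher (0.366%).

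Among the period genes, per1a was at 45.5, 46.9 and 6.03 CPM in the WT libraries of experiments 2, 3 and 4 and at 17.2, 51.6 and 4.69 CPM in the mutants (log2 fold change -2.91, standard error 0.444, adjusted p = 0.160). Its relative per1b was at 180.4, 183 and 63.3 CPM in WT and at 134, 220.5 and 61.9 CPM in the mutants (-1.52, adjusted p = 0.135). Levels of per3 were 378, 318 and 151 CPM in WT and 286, 325 and 109.9 CPM in the mutants (-1.34, adjusted p = 0.0754). In these 3 genes the libraries of experiment 4 were the lowest pair, and no value of theirs reached any value of experiments 2 and 3. The light-inducible per2 behaved otherwise, at 187, 202 and 40.8 CPM in WT and at 117, 27.9 and 48.8 CPM in the mutants, since the mutant library of experiment 3 lay below that of experiment 4.

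The cryptochrome genes went both ways, and genes named cry1 were on both sides. The repressor gene cry2 was at 60.4, 54.4 and 19.2 CPM in WT and at 44.5, 54.2 and 19.8 CPM in the mutants (log2 fold change -1.44, standard error 0.144, adjusted p = 0.0754). Levels of cry1ab were 42.7, 43.5 and 16.7 CPM in WT and 18.5, 25.9 and 12.2 CPM in the mutants (-1.11). The value for cry1aa was -0.51. Opposite values were found for cry1ba, at 152, 175 and 285 CPM in WT and 176, 70.14 and 253 CPM in the mutants (0.92, adjusted p = 0.325). As with cry1ba, both libraries of experiment 4 were the highest pair for cry1bb (0.59) and cry4 (0.68), and these 3 genes are the ones above in each genotype.

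Among the other genes of the repressor list, those for the Clock-Bmal inhibitors ciarta and ciartb were low in experiment 4. Levels of ciarta were 52.7, 57.2 and 11.14 CPM in WT and 29.8, 55.0 and 13.1 CPM in the mutants (log2 fold change -1.98), and the log2 fold change of ciartb was -1.57 (adjusted p = 0.0754). The E-box repressor gene bhlhe41 was at 70.0, 74.9 and 19.7 CPM in WT and at 52.9, 78.7 and 31.9 CPM in the mutants (-1.44). Its paralogue bhlhe40 had no such pattern, with 113, 99.4 and 160.2 CPM in WT and 162, 255 and 175 CPM in the mutants, and its log2 fold change of 0.19 was positive in WT (0.59) and negative in the mutants (-0.26). Outside the list, cipcb, a homologue of the gene for a Clock-interacting repressor in mammals, was at 135, 130.3 and 41.9 CPM in WT and at 102, 98.8 and 53.01 CPM in the mutants (-1.28, adjusted p = 0.140; named after its values were seen).

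The activators had the opposite sign. Of the 6 genes, 5 had a positive log2 fold change, and the median was 0.61. In 4 the experiment 4 library was above both others in each genotype (16.6% of all genes tested). The bmal gene arntl1a was at 7.07, 6.19 and 17.1 CPM in WT and at 9.65, 8.67 and 15.7 CPM in the mutants (log2 fold change 1.07, standard error 0.171, adjusted p = 0.171). Its paralogue arntl1b was at 3.71, 6.37 and 11.3 CPM in WT and at 5.98, 4.09 and 7.57 CPM in the mutants (0.89), and the values for arntl2 and clocka were 0.55 and 0.67. In clockb the mutant library of experiment 4 lay between the other mutant libraries, and npas2, a paralogue of Clock, had a negative value (-0.58) with the mutant library of experiment 3 as its lowest. DESeq2 called arntl1a alone among the activators (0.366% of all genes it tested were called higher).

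In the stabilising loop 8 of the 10 genes in the files passed the filter. In 5 of them experiment 4 lay below in each genotype (16.2% of all genes tested). The Rev-erb gene nr1d1, which represses arntl transcription, had the second largest negative value of all clock genes, at 70.8, 56.1 and 8.80 CPM in WT and at 30.7, 82.4 and 8.41 CPM in the mutants (log2 fold change -2.80, standard error 0.409, adjusted p = 0.142). The Ror genes rorca and rorcb, whose products activate arntl genes in mammals, were the 2 above in each genotype (16.6% of all genes). The other Ror genes tested, roraa and rorab, were among those below in each genotype (log2 fold changes -0.25 and -0.42). Levels of rorca were 11.4, 10.5 and 35.9 CPM in WT but 22.5, 20.6 and 23.3 CPM in the mutants, so that the log2 fold change was 1.72 in WT and 0.11 in the mutants (difference, adjusted p = 0.137). In nr1d2a the WT libraries of experiments 2 and 3 stood apart, at 286.4 and 335.1 CPM against 84.3 CPM in WT of experiment 4 and 56.5, 132 and 82.7 CPM in the mutants.

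Among the PAR bZIP and nfil3 genes, 9 of the 11 in the files passed the filter. Of these, 5 lay below in each genotype (16.2% of all genes tested). The tef gene tefa was at 274, 249.8 and 129.8 CPM in WT and at 251, 232 and 118 CPM in the mutants (log2 fold change -1.02, standard error 0.113, adjusted p = 0.0754). Levels of tefb were 55.0, 62.9 and 27.3 CPM in WT and 42.2, 73.6 and 19.5 CPM in the mutants (-1.33), and the value for hlfa was -0.56. The repressors nfil3 and nfil3-5, which bind the sites of the PAR bZIP factors, were the 2 genes above in each genotype (16.6% of all genes). Levels of nfil3 were 6.49, 5.72 and 13.5 CPM in WT and 11.7, 8.73 and 18.4 CPM in the mutants (0.99), and the value for nfil3-5 was 1.03. Their paralogue nfil3-6 went the other way (-0.58). With CPM scaled over all 10 libraries, nfil3-6 was at 122, 124 and 54.6 CPM in WT and at 36.3, 56.5 and 44.8 CPM in the mutants.

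**Figure D1:**
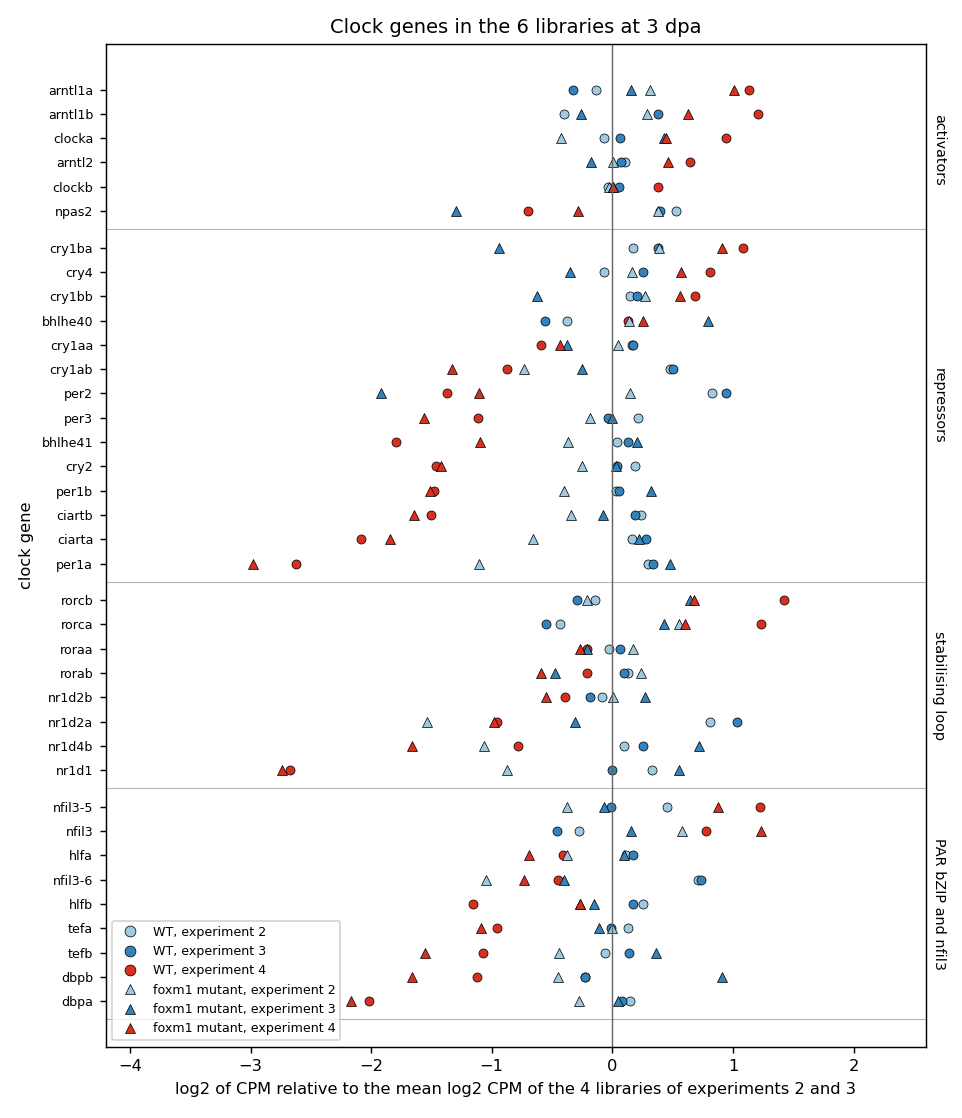
Levels of the 37 clock genes tested, in rows by list, as log2 CPM of each library relative to the mean log2 CPM of the 4 libraries of experiments 2 and 3 (circles WT, triangles foxm1 mutant, red experiment 4). Red points lie left of all blue points for dbpa, per1a, nr1d1, per1b, cry2, ciarta and ciartb, and right of them for arntl1a and cry1ba, while in per2 and nr1d2a a blue triangle (mutant of experiment 3 or 2) lies furthest left.

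Over the 4 clock lists together, 37 of the 41 genes in the files passed the filter. In 19 of the 37 the library of experiment 4 lay below both others in each genotype (16.2% of all genes tested) and in 11 above (16.6%). DESeq2 called 12 of the 37 lower (1.15% of genes) and 3 higher (0.366%), whereas the quasi-likelihood test called dbpa alone. The contrast of experiment 4 with experiments 2 and 3 was also computed in each genotype separately, with no library shared by the 2 sets of values. Across the 37 clock genes the WT and mutant values had a Pearson correlation of 0.82 (Spearman's rho 0.79), and across all 17618 genes these were 0.107 and 0.150. The correlations are across genes of the same 6 libraries, and genes are not independent replicates. The clock genes and all genes tested were not matched for level or for size of change, on which a correlation depends. The median of the 37 genes was -0.90 in WT and -0.28 in the mutants.

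**Figure D2:**
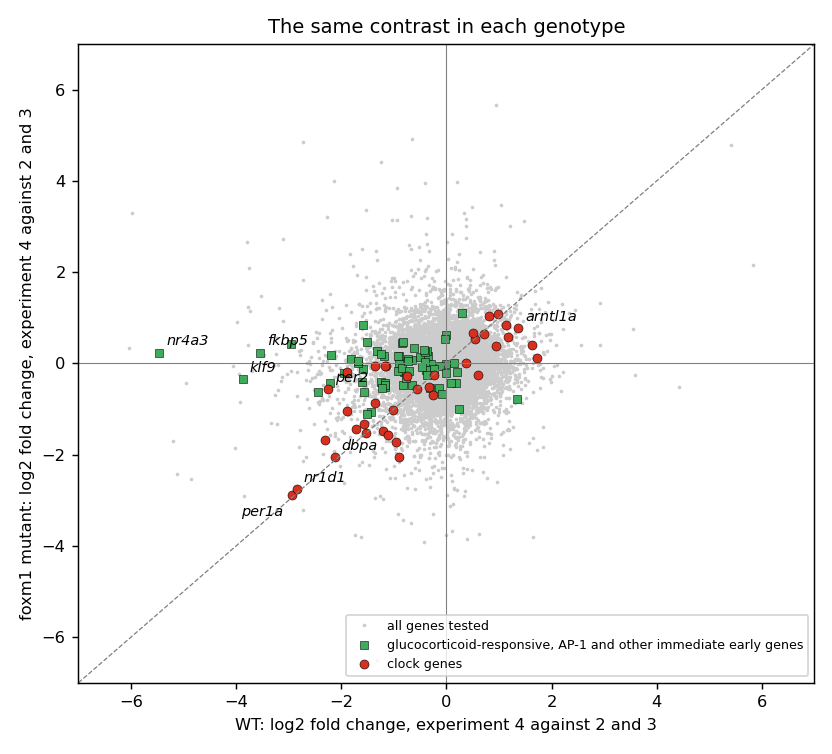
Log2 fold change of experiment 4 against experiments 2 and 3 in WT (x axis) and in foxm1 mutants (y axis), 1 library against 2 in each, for all 17618 genes (grey), clock genes (red) and glucocorticoid-responsive, AP-1 and other immediate early genes (green); 3 genes lie outside the axes, and the dashed line marks equal values. The red points of dbpa, per1a and nr1d1 lie near the dashed line, whereas the green points of nr4a3, fkbp5 and klf9 lie to the left at mutant values near 0. Some other red points lie off the line, among them per2, rorca and bhlhe40 (0.59 in WT and -0.26 in mutants).

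The libraries of experiment 1, deposited with the others, hold WT and dusp6 mutant ventricles, uninjured and at 3 dpa. They extended this order for part of the clock genes. They were sequenced more deeply (54229254 to 67236702 reads), and the CPM used for them was scaled over all 10 libraries. Their levels of per1a were from 1.68 to 3.67 CPM, against 4.51 and 5.796 CPM in the libraries of experiment 4 and 16.6 to 49.6 CPM in those of experiments 2 and 3. For dbpa the same ranges were 2.18 to 5.81, 7.81 to 8.67 and 29.1 to 38.7 CPM. In reverse order, arntl1a was at 26.7 to 39.6 CPM in experiment 1, 15.04 to 16.4 CPM in experiment 4 and 5.95 to 9.31 CPM in experiments 2 and 3.

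Of the 37 clock genes, 9 had all values of experiment 1 below those of experiment 4 and these below all of experiments 2 and 3, an order found in 1.54% of 20049 genes. The 9 were per1a, per1b, per3, cry2, ciarta, ciartb, bhlhe41, dbpa and nr1d2b. The reverse order, with experiment 1 highest, held for 10 of the 37 against 1.25% of genes. The 10 were arntl1a, arntl1b, arntl2, clocka, cry1ba, cry1bb, cry4, nfil3, nfil3-5 and rorcb. By the definition of these orders, experiment 4 was intermediate in these 19 genes, with uninjured and injured hearts of experiment 1 on the same side. Both orders include the difference between experiment 4 and experiments 2 and 3 given above. Their shares are therefore not separate from it. The other 18 clock genes had neither order, among them nr1d1, per2, nr1d2a and tefa. The WT library of experiment 1 at 3 dpa, which has the genotype and injury of the other WT libraries, lay with the rest of experiment 1, at 3.52 CPM for per1a, 2.18 CPM for dbpa and 26.7 CPM for arntl1a. The WT libraries of experiments 2 and 3 were at 43.7 and 45.1 CPM for per1a, and sequencing depth cannot be told apart from the experiment. For library preparation and sequencing, the study's methods name the University of Pittsburgh and Tufts University, without saying which libraries each handled. A part of the site in these values was not tested.

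**Figure D3:**
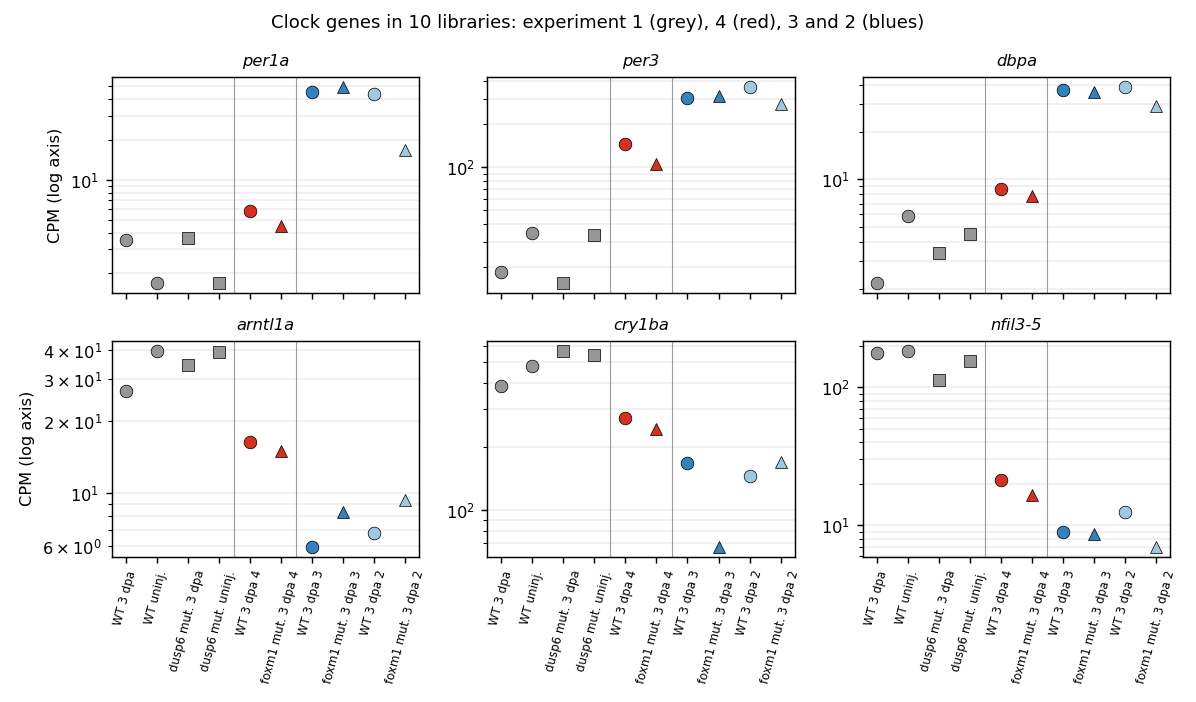
CPM (log axis, scaled over 10 libraries) of 6 clock genes in the libraries of experiment 1 (grey; circles WT, squares dusp6 mutant), experiment 4 (red) and experiments 3 and 2 (blues; triangles foxm1 mutant). In per1a, per3 and dbpa the values step up from grey through red to blue, for example from 1.68 to 3.67 CPM over 4.51 and 5.796 CPM to at least 16.6 CPM in per1a, and in arntl1a, cry1ba and nfil3-5 they step down.

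Genes for proteins that act on clock proteins had values nearer to 0. Of 11 kinase and ligase genes tested, 6 had a positive value and their median was 0.01. The casein kinase genes csnk1da and csnk1db, whose products phosphorylate Per proteins, had log2 fold changes of -0.51 and -0.54. Levels of csnk1da were 179, 184 and 115 CPM in WT and 139, 144 and 109.7 CPM in the mutants. All 8 genes of the list of light-induced DNA repair genes had a negative value, with a median of -0.55, a median of -0.83 in WT and -0.26 in the mutants. Levels of cry5, which encodes a photolyase that repairs light-induced DNA damage, were 22.0, 20.6 and 5.76 CPM in WT and 15.5, 4.09 and 8.13 CPM in the mutants. As for per2, which is also switched on by light in zebrafish, the mutant library of experiment 3 was the lowest mutant for cry5. In all 8 genes of this list the WT library of experiment 4 was below both other WT libraries, against 39.2% of all genes. The mutant library of experiment 4 was below both other mutants in 3 of 8, against 34.9%.

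Glucocorticoid-responsive genes varied between pools in another way. Levels of fkbp5, which encodes a co-chaperone of the glucocorticoid receptor, were 1189 and 1529 CPM in the WT libraries of experiments 2 and 3 and 115.9 CPM in that of experiment 4. In the mutants they were 111, 187 and 175 CPM. Only 2 of the 6 libraries were therefore high, and the WT library of experiment 4 lay within the range of the mutants. The log2 fold change was -3.55 in WT and 0.23 in the mutants, and the difference between these had an adjusted p of 0.121. For klf9, a transcription factor gene induced by cortisol, the values were 65.4, 86.6 and 5.16 CPM in WT and 5.32, 15.9 and 8.36 CPM in the mutants. Experiment 1 was read on the scale of all 10 libraries. There fkbp5 was at 434 CPM in WT and 550 CPM in dusp6 mutants at 3 dpa, and at 8.40 and 14.8 CPM uninjured. For klf9 the values at 3 dpa were 23.6 and 35.7 CPM. On this scale WT of experiment 4 was at 111 CPM for fkbp5 and 4.96 CPM for klf9. In both genes WT of experiment 1 at 3 dpa lay between the WT libraries of experiment 4 and of experiments 2 and 3.

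Of the 23 glucocorticoid-responsive genes tested, 21 had a negative value in the contrast over both genotypes, with a median of -0.41. The quasi-likelihood test called none. DESeq2 called 2 lower, hsd11b2 and dusp1 (1.15% of all genes it tested), and none higher (0.366%). The median was -0.72 in WT and -0.13 in the mutants. The WT library of experiment 4 lay below both other WT libraries in 18 of 23 genes (39.2% of all genes). The mutant library of experiment 4 lay below both other mutants in 9 of 23 (34.9%). In 5 of 23 experiment 4 was below in each genotype (16.2%), and in 1 above (16.6%). Levels of sgk1, a kinase gene that glucocorticoids induce, were 119.6, 144 and 43.7 CPM in WT and 62.7, 45.8 and 49.5 CPM in the mutants. Those of glulb, a glutamine synthetase gene, were 257, 315 and 81.7 CPM in WT and 91.2, 101 and 103 CPM in the mutants. In hsd11b2, whose product inactivates cortisol, both genotypes had the library of experiment 4 lowest. Its levels were 677, 823 and 333 CPM in WT and 289, 410.4 and 245 CPM in the mutants (log2 fold change -0.83, adjusted p = 0.270). Experiment 4 was also lowest in each genotype for zbtb16b (-0.81), dusp1 (-0.79), cebpd (-0.57) and errfi1a (-0.46). The positive members were nr3c1, the glucocorticoid receptor gene (0.01), and angptl4, a lipoprotein lipase inhibitor gene, with 48.8, 51.6 and 62.0 CPM in WT and 22.7, 33.2 and 60.3 CPM in the mutants (0.72).

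Several immediate early genes had the same 2 libraries high. The nuclear receptor gene nr4a3 was at 74.0 and 104.8 CPM in the WT libraries of experiments 2 and 3, at 2.01 CPM in that of experiment 4 and at 6.97, 5.51 and 7.34 CPM in the mutants. On the scale of all 10 libraries, nr4a3 in WT at 3 dpa was at 8.12 CPM in experiment 1 and 1.93 CPM in experiment 4. Its log2 fold change was -5.47 in WT and 0.24 in the mutants, and the difference had an adjusted p of 0.0586, the lowest of any gene, which did not pass. Its paralogue nr4a1 was at 146, 191 and 30.9 CPM in WT and at 41.5, 43.1 and 27.2 CPM in the mutants. Likewise peli1a, a pellino ubiquitin ligase gene of innate immune signalling, was at 111, 133 and 11.08 CPM in WT and at 19.9, 15.4 and 20.02 CPM in the mutants (difference, adjusted p = 0.0586).

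In the list of AP-1 genes, which encode Fos, Jun and Atf transcription factors, 14 of 15 had a negative value, and the list's median was -0.90 in WT and 0.01 in the mutants. Levels of atf3 were 226, 152 and 24.3 CPM in WT and 28.2, 18.1 and 31.3 CPM in the mutants. Those of jund were 202, 214 and 45.2 CPM in WT and 58.6, 41.7 and 57.4 CPM in the mutants, and those of fosab 26.8, 35.9 and 13.3 CPM in WT and 13.0, 13.7 and 10.1 CPM in the mutants. The WT library of experiment 4 was below both other WT libraries in 14 of 15 genes (39.2% of all genes). The mutant library of experiment 4 was below both other mutants in 6 of 15, near the share of all genes (34.9%). In 6 of 15 both held for the same gene, against 16.2% of all genes tested. For the other immediate early genes these counts were 23, 13 and 9 of 31, beside the same shares. Their medians were -0.77 in WT and -0.08 in the mutants. No gene of either list was above in each genotype (16.6% of all genes). DESeq2 called no AP-1 gene. It called 4 of the 31 others lower, nr4a1, klf4, btg2 and dusp1 (1.15% of all genes it tested), and none higher (0.366%).

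No gene was called in the test of the difference between genotypes (0% of 17618). An unadjusted p under 0.05 was reached by 1004 genes with a higher value in the mutants and 834 with a lower one. DESeq2 called 153 and 31 in these directions, and the likelihood ratio test called 285 and 131. This test had 2 residual degrees of freedom. Without the mutant library of experiment 2 it called 1629 genes, and without that of experiment 3 it called 667.

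**Figure D4:**
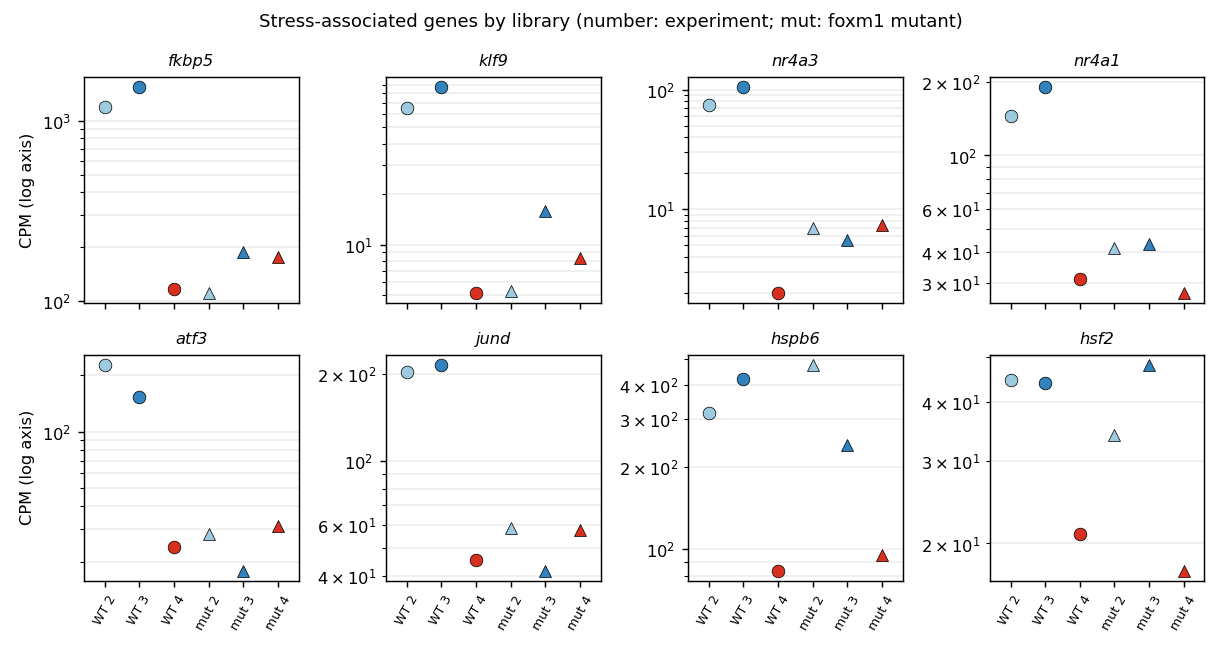
CPM (log axis) of 8 genes in each of the 6 libraries, circles WT and triangles foxm1 mutant, coloured by experiment. In fkbp5, klf9, nr4a3, nr4a1, atf3 and jund the WT libraries of experiments 2 and 3 stand above the other 4 (fkbp5 at 1189 and 1529 CPM, all others at most 187.1), whereas in hspb6 and hsf2 both libraries of experiment 4 are the lowest.

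Heat shock genes had no common direction. Of 40 tested, 21 had a positive value, and the median was 0.01 (-0.19 in WT and 0.19 in the mutants). In 5 of the 40 the experiment 4 library lay below both others in each genotype (16.2% of all genes tested). In 8 it lay above both (16.6%), as in hspb1 (log2 fold change 0.36). Members with both libraries of experiment 4 lowest are given next. The small heat shock protein gene hspb6 was at 318, 422 and 83.5 CPM in WT and at 475, 241 and 94.8 CPM in the mutants (log2 fold change -2.03, standard error 0.295, adjusted p = 0.142). The heat shock factor gene hsf2 was at 44.6, 43.9 and 21.0 CPM in WT and at 34.0, 47.9 and 17.5 CPM in the mutants (-1.15, adjusted p = 0.140). DESeq2 called both lower, together with cryabb, an alpha-crystallin gene (-1.85), and hsp70l, an inducible Hsp70 gene (-1.42). These were the 4 of the 40 called lower (1.15% of all genes it tested), and none was called higher (0.366%). The co-chaperone gene bag3, in contrast, was at 178, 174 and 33.7 CPM in WT and at 77.3, 47.3 and 53.7 CPM in the mutants, with the same 2 libraries high as for fkbp5.

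Outside the heat shock list, the sarcomere gene tcap, for the titin cap protein, was at 703, 682 and 149.8 CPM in WT and at 571, 359 and 220.5 CPM in the mutants (log2 fold change -1.61, adjusted p = 0.230). Of the 45 sarcomere genes tested, 22 had a positive value and the median was -0.02. The gene epas1a, for a hypoxia-inducible factor subunit, was at 45.8, 35.8 and 21.5 CPM in WT and at 29.5, 33.0 and 17.5 CPM in the mutants (-0.88, adjusted p = 0.171). In the hypoxia list 17 of 31 genes had a positive value, with a median of 0.14. In the list of endoplasmic reticulum stress genes 21 of 33 did, and the median was 0.00 in WT and 0.39 in the mutants. In 15 of the 33 experiment 4 was above in each genotype (16.6% of all genes tested), and in 4 below (16.2%). Here hsp90b1, the chaperone of the endoplasmic reticulum, was at 175, 171 and 241 CPM in WT and at 203, 147 and 286 CPM in the mutants (0.60).

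Cell cycle genes had higher values in both libraries of experiment 4. All 68 genes tested of the list G2/M and mitosis had a log2 fold change above 0, their median being 0.46, and 56 of the 68 had the experiment 4 library above both others in each genotype (16.6% of all genes tested). Of the 57 S phase and replication genes, 56 had a positive value with a median of 0.47, and 46 were above in each genotype. Taken by genotype, the WT library of experiment 4 was above both others in 66 of 68 and 48 of 57 genes (40.7% of all genes tested), and the mutant library in 58 and 54 (34.1%). None of these genes was called by the quasi-likelihood test. DESeq2 called 2 of the 68 and 4 of the 57 higher (0.366% of all genes it tested). Summed over the list, G2/M genes were at 950.5, 1017 and 1372 CPM in WT and at 712.3, 923.1 and 1154 CPM in the mutants. Those of S phase were at 832.9, 819.5 and 1051 CPM in WT and at 645.7, 683.9 and 1004 CPM in the mutants, so that in both sums experiments 2 and 3 lay below experiment 4. Sums over lists, here and below, are CPM without TMM scaling.

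Log2 fold changes ranged from 0.10 to 0.80 over the 68 G2/M genes and from -0.38 to 0.94 over the 57 S phase genes, and the members given next, ccnb1 excepted, were chosen by low adjusted p. The ribonucleotide reductase gene rrm2, listed as rrm2_1, was at 42.3, 41.8 and 68.3 CPM in WT and at 30.9, 33.0 and 57.3 CPM in the mutants (log2 fold change 0.77, standard error 0.103, adjusted p = 0.135). For tk1, the thymidine kinase gene, the values were 7.94, 8.47 and 13.6 CPM in WT and 5.92, 6.76 and 11.2 CPM in the mutants (0.77). Levels of racgap1, which acts in cytokinesis, were 17.0, 19.0 and 26.6 CPM in WT and 14.6, 14.7 and 23.8 CPM in the mutants (0.63, adjusted p = 0.209). The cyclin gene ccnb1 was at 20.5, 21.2 and 25.9 CPM in WT and at 8.39, 12.6 and 20.6 CPM in the mutants. Its log2 fold change was 0.31 in WT and 0.97 in the mutants, and the test of the difference between genotypes did not call it. The gene ccnb1 was named after its values were seen. In bulk tissue, more cells in cycle and more RNA per cycling cell cannot be told apart.

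The proteasome genes had a like sign, with 30 of 31 positive (49.8% of all genes tested) and a median of 0.29. In 27 of 31 experiment 4 was above in each genotype (16.6% of all genes). An example is psmd5, for a chaperone of proteasome assembly, at 14.8, 13.7 and 18.0 CPM in WT and 11.6, 13.7 and 19.8 CPM in the mutants (log2 fold change 0.49, adjusted p = 0.279). Cytosolic ribosomal protein genes were also mostly positive, 67 of 80, but with a smaller median of 0.05. None of the 80 was above in each genotype (16.6% of all genes) or below (16.2%).

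Interferon-responsive genes were mostly negative, 33 of 36, with a median of -0.42, and the quasi-likelihood test called none. DESeq2 called 1 of the 36 lower, mxf (1.15% of all genes it tested), and none higher (0.366%). In 11 of the 36 experiment 4 lay below in each genotype (16.2% of all genes tested), and in 2 above (16.6%). The median was -0.61 in the mutants and -0.05 in WT, and the mutant library of experiment 4 was below both other mutants in 27 of 36 genes (34.9% of all genes), against 17 of 36 for WT (39.2%). The transcription factor gene stat1b was at 14.1, 19.6 and 15.5 CPM in WT and at 74.0, 67.0 and 19.98 CPM in the mutants, and the antiviral GTPase gene mxb was at 1.33, 1.81 and 1.52 CPM in WT and at 48.7, 29.8 and 8.04 CPM in the mutants. For these genes the mutant libraries of experiments 2 and 3 were the high ones. The difference between genotypes had an adjusted p of 0.203 for stat1b and 0.303 for mxb. In mxf, another Mx gene, both genotypes had experiment 4 lowest, at 16.1, 16.7 and 4.84 CPM in WT and 8.12, 10.4 and 4.46 CPM in the mutants (log2 fold change -1.40, adjusted p = 0.161). The ubiquitin-like modifier gene isg15 went the other way, with 5.85, 9.70 and 14.1 CPM in WT and 23.6, 27.8 and 30.3 CPM in the mutants.

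**Figure D5:**
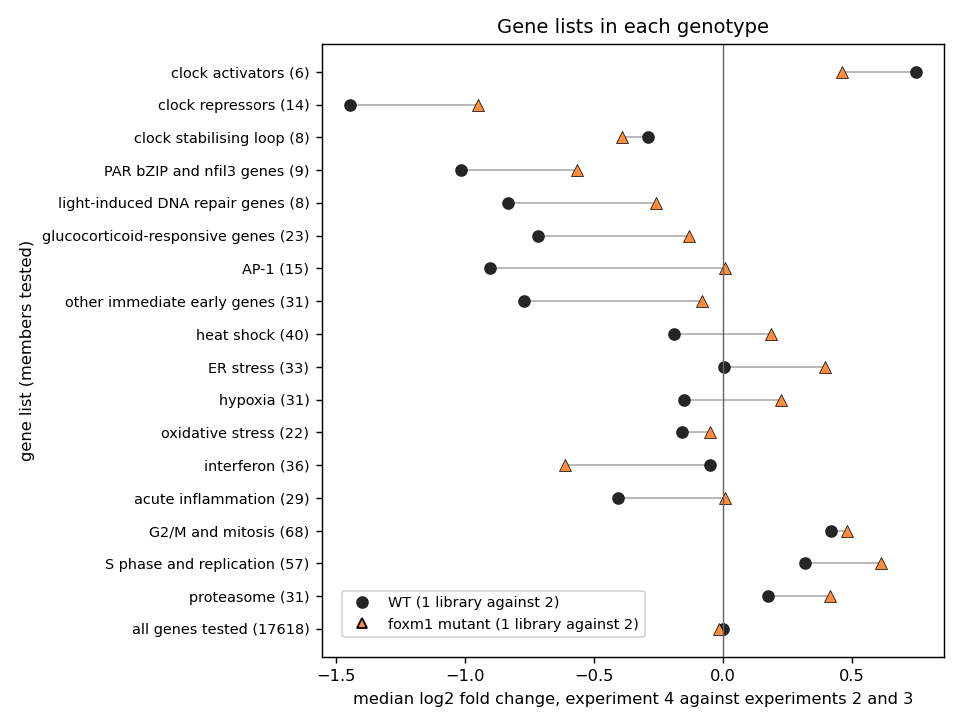
Median log2 fold change of experiment 4 against experiments 2 and 3 for 17 gene lists and all genes tested, in WT (black circles) and foxm1 mutants (orange triangles), with the number of members tested in brackets. The clock lists and both cell cycle lists lie on 1 side of 0 in both genotypes (repressors -1.44 and -0.95, G2/M 0.42 and 0.48), AP-1 genes lie at -0.90 in WT and 0.01 in mutants, and interferon genes at -0.05 in WT and -0.61 in mutants.

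Markers of cell types were read in the same way. Summed cardiomyocyte markers, 21 of 21 tested, were at 46478 to 52275 CPM in experiments 2 and 3 and at 47743 and 53514 CPM in experiment 4, with none of the markers at 0. Macrophage markers had 6 of 25 genes positive and a median of -0.15, and their sums overlapped, at 1873 to 2783 CPM against 1734 and 2257 CPM. Neutrophil markers had 2 of 16 positive and a median of -0.37. In 4 of the 16 experiment 4 lay below in each genotype (16.2% of all genes tested). Among these was csf3r, the receptor gene for granulocyte colony-stimulating factor. It was at 12.3, 18.8 and 8.31 CPM in WT and 17.4, 22.2 and 9.62 CPM in the mutants. The mutant library of experiment 4 was below both other mutants in 5 of 16 markers (34.9%) and above both in 5 (34.1%). Sums of neutrophil markers, 348.8 to 485.5 CPM against 344.1 and 484.4 CPM, also overlapped. The lists of erythrocyte, endothelial, thrombocyte and smooth muscle markers had sums that overlapped too.

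The sum of 23 liver markers, of which 12 passed the filter, did not overlap, at 619.2 to 755.4 CPM in experiments 2 and 3 and 373.6 and 456.1 CPM in experiment 4. This rested on tfa, the transferrin gene, at 312, 389 and 213 CPM in WT and 418, 381 and 129 CPM in the mutants (log2 fold change -1.15, adjusted p = 0.235). Without tfa, left out after its values were seen, the sums overlapped, at 230.2 to 378 CPM against 239 and 243 CPM. The list's median was -1.55 in WT and 1.04 in the mutants. The WT library of experiment 4 was below both other WT libraries in 11 of the 12 genes (39.2% of all genes). The mutant library of experiment 4 was above both other mutants in 7 of the 12 (34.1%) and below both in 4 (34.9%). In 4 of the 12 experiment 4 lay below in each genotype (16.2%). The part of these markers in the clock and cell cycle values was not tested.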

How the data were processed

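RNA was sequenced from pooled zebrafish ventricles. Per the study's methods, the authors mapped reads and counted them per gene of GRCz11 with CLC Genomics Workbench. The deposited tables give counts of all reads, of uniquely mapped reads, of exon reads and of intron reads for each gene, and TPM, which the authors scaled to library size and transcript length. The authors' own tables of fold changes and p-values were not used. Counts of all reads per gene in the WT and foxm1 mutant libraries at 3 dpa of experiments 2, 3 and 4 were fitted in R 4.3.3 with edgeR 4.0.16 (TMM scaling, filterByExpr with a minimum count of 10 and a minimum total of 15, quasi-likelihood test, experiment 4 against experiments 2 and 3 with genotype as a block). Genes were called where the adjusted p was no more than 0.05 and the log2 fold change reached 0.59 in size. A second model tested the difference of this contrast between genotypes.

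DESeq2 1.42.0, the likelihood ratio test, other scalings, filters and read classes, log2(TPM + 1) and log2(TPM + 0.1) with limma 3.58.1, all 10 libraries, single genotypes and leaving out each library were alternatives. Scripts were tested on simulated data. Groups came from the labels. Nothing says that libraries of a group came from separate clutches or days, so p-values measure the spread between these libraries, and depth covers counting error only. With 1 library of experiment 4 per genotype, permutation within genotypes allows no one-sided p under 0.111. The experiment, the gene lists and the genes to describe were chosen with earlier results of these data known. Named genes were the clock genes, members of each other list with the lowest adjusted p, called genes, fkbp5 and foxm1; peli1a, stat1b, mxb and other genes outside this rule were named after their values were seen.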

Additional observations from a re-analysis of the deposited data

Results flagged for a closer look

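Among the 4 WT libraries at 3 dpa (experiments 1 to 4), 96 genes named or considered above were examined for 1 library far from the others, and 6 had a gap past Dixon's critical value for 4 samples, which chance gives in about 1 in 20 groups. The library of experiment 4 stood apart as the highest for crygn1, with a gap of 0.967 of the range (5.01 CPM against 0.0561 to 0.221 CPM, scaled over 10 libraries), and for kalrna, with 0.853 (31.3 CPM against 9.69 to 12.9 CPM). Both genes were named for their high values in experiment 4, so these flags reuse the same values. The library of experiment 1 stood apart as the highest for 4 clock genes. These were arntl2, with a gap of 0.881 (17.7 CPM against 3.48 to 5.17 CPM), nr1d4b, with 0.942 (10.9 CPM against 0.574 to 1.18 CPM), rorcb, with 0.876 (129.8 CPM against 6.74 to 22.0 CPM), and nfil3-5, with 0.928 (179 CPM against 8.98 to 21.1 CPM).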

How the results depend on the processing

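No paired analysis was possible because the replicate number is the experiment number, which is what was compared. The count of genes called higher (1) and lower (1) was 52 and 164 with DESeq2, 104 and 191 with the likelihood ratio test, 388 and 832 with WT alone, 44 and 41 with the mutants alone, 0 and 0 on log2(TPM + 1) and log2(TPM + 0.1), 0 and 0 with the limit on the adjusted p at 0.01, and 2 and 9 with it at 0.1. Genes called higher numbered 4 without a filter on low counts, 4 with experiment 4 as the group of the filter, 2 on uniquely mapped reads, 2 without haemoglobin and mitochondrial genes and 0 on exon reads, and no gene was called lower with all 10 libraries. Leaving out 1 library gave from 3 to 10 genes higher and from 0 to 43 lower, the most without the mutant library of experiment 4 (53 in all, dbpa and crygn1 among them). The difference between genotypes (0 genes) was called for 184 genes with DESeq2, 416 with the likelihood ratio test and for between 28 and 1629 genes when 1 library was dropped. In these fits a group with 1 library is assumed to vary like the others, and the causes were not tested.

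The log2 fold change of dbpa was -1.87 and -2.05 on log2(TPM + 1) and log2(TPM + 0.1) (adjusted p = 0.265 and 0.140, limma) and -2.10 with all 10 libraries (adjusted p = 0.0625, edgeR). For crygn1 it was -0.032 and -0.24 on the TPM scales, 5.03 with all 10 libraries (adjusted p = 0.573, edgeR) and 4.92 without the genotype term (adjusted p = 0.0798, edgeR). Without the WT library of experiment 4 the sign turned for 9 genes. Over the fits with 1 library left out, the log2 fold change ranged from -0.25 to 0.59 for bhlhe40, -3.55 to 0.24 for fkbp5, -5.47 to 0.24 for nr4a3, -2.96 to 0.44 for atf3, -2.20 to 0.20 for jund, -3.46 to 0.19 for peli1a, -1.80 to 0.17 for hsp70.2, -0.11 to 0.24 for foxm1 and -1.81 to 0.10 for glulb. With the mutants alone the values were -0.25, 0.24, 0.24, 0.44, 0.20, 0.19, 0.17, -0.11 and 0.11 in the same order. Counts of clock genes below (19 to 20) or above (10 to 12) in each genotype, and of G2/M (56 to 57) and S phase genes (45 to 48) above, held over the other scalings and read classes.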

Other observations

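Reads in the introns of crygn1 were also present in experiment 1, where total reads were 37 in uninjured WT, 182 in uninjured dusp6 mutants, 14 in WT at 3 dpa and 180 in dusp6 mutants at 3 dpa, of which 37, 174, 12 and 179 lay in introns. The libraries of experiment 1 were sequenced more deeply than those of experiments 2 to 4.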
